A study of Drosophila melanogaster with 9 samples.

Results

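DNA accessibility was compared between Drosophila melanogaster S2R+ cells kept at 14 °C and cells kept at 25 °C, the standard culture temperature of this line, to find which loci, gene classes and positions of accessible regions shift in the cold. S2R+ is an adherent embryonic cell line with characters of haemocytes, the blood cells of the fly. The comparison took 6 of the 9 libraries of the series, 3 replicates at 14 °C and 3 at 25 °C. The other 3 libraries, from 29 °C, entered the fit only to estimate the spread between replicates, and their values are given where they help to place the first 2 temperatures. All groups were the same unmodified line with no compound added, and were grown for 36 h at 25 °C before 24 h at 14, 25 or 29 °C. Per the labels, nuclei from 75000 cells were then tagmented for 30 min at 25 °C in every group, so that changes which reverse within this time could not be seen. The labels give the same plating density for every temperature, while the study's methods describe denser plating for the cold, so that temperature and density cannot be told apart. All 17175 consensus peaks of the count table were tested.

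ATAC-Seq uses the transposase Tn5, which inserts sequencing adapters preferentially where DNA is not wrapped in nucleosomes. In fly cells the accessible regions are largely promoters, which lie at transcription start sites (TSSs), and enhancers, which lie in introns and between genes and are bound by transcription factors. A peak's count therefore reports how open a region was across the cells of a culture, and fewer open cells cannot be told apart from less opening per cell. Flies and fly cells are ectotherms, and membranes, signalling enzymes and the cytoskeleton are all known to depend on temperature.

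Among peaks in which the libraries of 14 and 25 °C did not overlap, the 3 with the smallest p in each direction were taken. Peaks of 1 chromosome arm, from which no sequence is given, were left aside. The central 201 bases of these 6 peaks are shown. They are written 5′ to 3′ on the plus strand of dm6, and capitals mark matches to 10 motifs that were searched on both strands and are spelled out further on. The first 3 were less accessible at 14 °C and the other 3 more accessible. A start site in a name means a start within 500 bp of the peak. The windows of lncRNA:CR44885 and Dys were centred 305 and 225 bp upstream of the nearest annotated start, so neither window holds a start.
lncRNA:CR44885 start site, chrX:19788361-19788561: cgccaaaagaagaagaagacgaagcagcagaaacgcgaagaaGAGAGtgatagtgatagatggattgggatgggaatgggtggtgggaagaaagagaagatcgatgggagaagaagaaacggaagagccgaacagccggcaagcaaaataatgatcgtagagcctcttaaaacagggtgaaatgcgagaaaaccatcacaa
Dys start site, chr3R:19568885-19569085: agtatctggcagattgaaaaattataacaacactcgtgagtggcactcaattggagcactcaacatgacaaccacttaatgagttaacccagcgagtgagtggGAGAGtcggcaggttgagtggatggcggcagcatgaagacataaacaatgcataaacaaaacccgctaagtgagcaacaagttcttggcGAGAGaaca
Fum1 and ND-ASHI start sites, chrX:6679464-6679664: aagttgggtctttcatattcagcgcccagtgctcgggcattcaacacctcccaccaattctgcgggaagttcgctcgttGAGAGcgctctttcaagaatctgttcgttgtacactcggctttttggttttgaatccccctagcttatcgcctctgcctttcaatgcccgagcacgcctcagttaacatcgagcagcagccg
rut intron, chrX:14811336-14811536: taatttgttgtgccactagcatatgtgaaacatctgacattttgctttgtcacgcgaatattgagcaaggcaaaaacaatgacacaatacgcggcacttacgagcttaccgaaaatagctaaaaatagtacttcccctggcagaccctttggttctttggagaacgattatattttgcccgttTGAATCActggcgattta
CdGAPr intron, chr2L:19785963-19786163: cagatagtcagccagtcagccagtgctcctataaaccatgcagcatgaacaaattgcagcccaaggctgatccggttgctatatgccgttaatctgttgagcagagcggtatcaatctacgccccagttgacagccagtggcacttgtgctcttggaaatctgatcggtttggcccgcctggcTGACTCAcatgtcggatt
Kah start site, chr3L:589076-589276: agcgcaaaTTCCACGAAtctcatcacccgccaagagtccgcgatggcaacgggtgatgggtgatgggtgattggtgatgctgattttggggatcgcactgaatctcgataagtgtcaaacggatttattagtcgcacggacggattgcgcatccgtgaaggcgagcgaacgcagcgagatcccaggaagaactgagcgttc
The windows of lncRNA:CR44885, Dys and Fum1 held matches to the motif of GAGA factor alone, 1, 2 and 1 in number. The windows of rut and CdGAPr each held 1 match to the AP-1 motif, and that of Kah held 1 match to the STAT motif.

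The libraries held 3606693, 10459192 and 6596744 counts in peaks at 14 °C, and between 6046528 and 7456082 at 25 °C. The median peak had a mean count of 260.7, which gives a counting error of 6.19%, below the 22.7% by which replicates varied. Replicate 2 at 14 °C stood apart. Its log2 counts correlated across peaks (which are not independent) with r = 0.74 and 0.83 with the other 14 °C libraries, against 0.95 between those 2, and at 25 °C the 3 values were 0.87 to 0.96. Tall peaks stood further above low peaks in it: the tallest 10% of the peaks took 24.9%, 36.0% and 26.9% of the counts of replicates 1, 2 and 3 at 14 °C, against 31.9%, 34.4% and 37.6% at 25 °C (exact permutation test, 2-sided p = 0.30, smallest possible 0.10). Its part in the results was not tested, and counts are given with and without this library.

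Of the 17175 peaks, 1 (0.00582%) differed between 14 and 25 °C in the quasi-likelihood test of edgeR, at a threshold of 0.05 on the p adjusted after Benjamini and Hochberg. It was a peak within 500 bp of the TSS of the long non-coding RNA gene lncRNA:CR44885, and it was less accessible at 14 °C. The next smallest adjusted p was 0.201. Log2 fold changes, given as 14 °C over 25 °C throughout, ran between -0.50 and 0.52 for the central 90% of the peaks, with a median of 0.04, and the median size of a fold change, 0.26, was close to the median standard error (SE), 0.24. Only 7 peaks had a log2 fold change above 1 and 31 one below -1. At an unadjusted p under 0.05 there were 360 higher peaks (2.1%) and 556 lower peaks (3.24%), and the 3 libraries of 14 °C did not overlap with those of 25 °C in 789 higher peaks (4.59%) and 873 lower peaks (5.08%). The balance of directions moved with the scaling, to 579 higher and 622 lower with scaling by total counts, and to 224 higher and 963 lower with the authors' size factors. When each library was given offsets that level its counts against peak height, 31 peaks (0.18%) passed the adjusted threshold as higher and 41 (0.239%) as lower, and all 72 had the same sign without the offsets. DESeq2, without such offsets, called 30 higher and 43 lower, and 30 of the 73 were also among the 72. The count of 1 became 0 when any 1 of the 6 libraries was left out. Without replicate 2 at 14 °C, unadjusted p-values under 0.05 numbered 2104 higher and 3437 lower, and with height offsets as well 81 higher and 121 lower peaks passed the adjusted threshold.

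The less accessible peaks described first are the 10 with the smallest p among those without overlap of libraries. Separation of the libraries was thus part of the choice and is not a separate result. They lay near the TSSs of a non-coding RNA gene, the dystrophin gene, fumarase, 2 signalling ligands and 1 gene with no role given here. The rest lay in introns of 4 genes. All 10 were called by DESeq2 and with height offsets, while only the first was called in the main fit. The peak near the lncRNA:CR44885 TSS (chrX:19788211-19788711), centred 305 bp upstream of it, had 15.3, 17.2 and 16.1 CPM at 14 °C (the count of the peak per library total, after TMM scaling), against 43.4, 50.7 and 59.7 CPM at 25 °C. The 3 cold libraries were nearly equal, and all were far below the lowest library of 25 °C. The log2 fold change was -1.66 ± 0.19 (SE), with an edgeR adjusted p of 0.0487, 0.0063 with height offsets, and from 0.0522 to 0.629 with 1 of the 6 libraries left out. At 29 °C the peak averaged 76.2 ± 14.8 CPM (SD, n = 3).

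Dys encodes dystrophin, which ties the actin cytoskeleton to the extracellular matrix. A TSS peak of Dys (chr3R:19568735-19569235) had 41.1, 43.5 and 34.4 CPM at 14 °C, against 90.9, 80.1 and 92.7 CPM at 25 °C (log2 fold change -1.15 ± 0.18, edgeR adjusted p = 0.201, 0.017 with height offsets). Fum1 encodes fumarase of the tricarboxylic acid cycle, and its start site lies in 1 peak with that of ND-ASHI, a subunit of respiratory complex I (chrX:6679314-6679814). This peak had 28.0, 31.8 and 26.5 CPM at 14 °C, against 70.5, 61.5 and 79.5 CPM at 25 °C (log2 fold change -1.29 ± 0.20, edgeR adjusted p = 0.201, 0.0116 with height offsets). In both peaks the lowest 25 °C library was well above the highest 14 °C library.

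The other start sites of this group belonged to dpp, vn and CG2162. Decapentaplegic, the product of dpp, is the fly's main bone morphogenetic protein ligand, and its peak (chr2L:2427993-2428493) had 30.9, 40.0 and 35.3 CPM at 14 °C, against 71.8, 72.3 and 86.5 CPM at 25 °C (log2 fold change -1.11 ± 0.18). The gene vn encodes vein, a neuregulin-like ligand of the epidermal growth factor receptor. Its peak (chr3L:5845510-5846010) had 43.6, 46.0 and 46.1 CPM at 14 °C, against 79.6, 86.1 and 98.7 CPM at 25 °C (-0.96 ± 0.18). The CG2162 peak was the tallest of the 10, with 69.8, 87.1 and 76.7 CPM at 14 °C, against 178, 161 and 198 CPM at 25 °C (-1.20 ± 0.23). The edgeR adjusted p of dpp, vn and CG2162 was 0.231, 0.367 and 0.433, and 0.0062, 0.0334 and 0.0233 with height offsets.

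The 4 intronic peaks lay in mtgo, Ac78C, alpha-Man-Ia and heph, between 4414 and 6866 bp from the nearest annotated TSS. The mtgo peak (chr2L:16623271-16623771), in a gene for a fibronectin type III domain protein, had 32.2, 28.0 and 24.6 CPM at 14 °C, against 54.3, 77.1 and 89.9 CPM at 25 °C (log2 fold change -1.39 ± 0.22). It averaged 138 ± 11.3 CPM at 29 °C (SD, n = 3). Ac78C encodes an adenylyl cyclase, which makes cyclic AMP, and the peak (chr3L:21167266-21167766) had 24.0, 28 and 31.9 CPM at 14 °C, against 59.1, 58.7 and 68.4 CPM at 25 °C (-1.14 ± 0.18). The peak in alpha-Man-Ia, for a Golgi mannosidase that trims N-glycans, had 46.3, 45.4 and 43.9 CPM at 14 °C, against 90.1, 93.3 and 110 CPM at 25 °C (-1.11 ± 0.19). The peak in heph, for the polypyrimidine tract-binding protein, a splicing regulator, had 33.2, 52.9 and 42.5 CPM at 14 °C, against 96.5, 88.7 and 108 CPM at 25 °C (-1.18 ± 0.23). Within each of the 4 peaks the temperatures were separated by more than the range of the 14 °C libraries, and their edgeR adjusted p ran from 0.201 for mtgo and Ac78C to 0.301 for alpha-Man-Ia and 0.433 for heph.

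**Figure D1:**
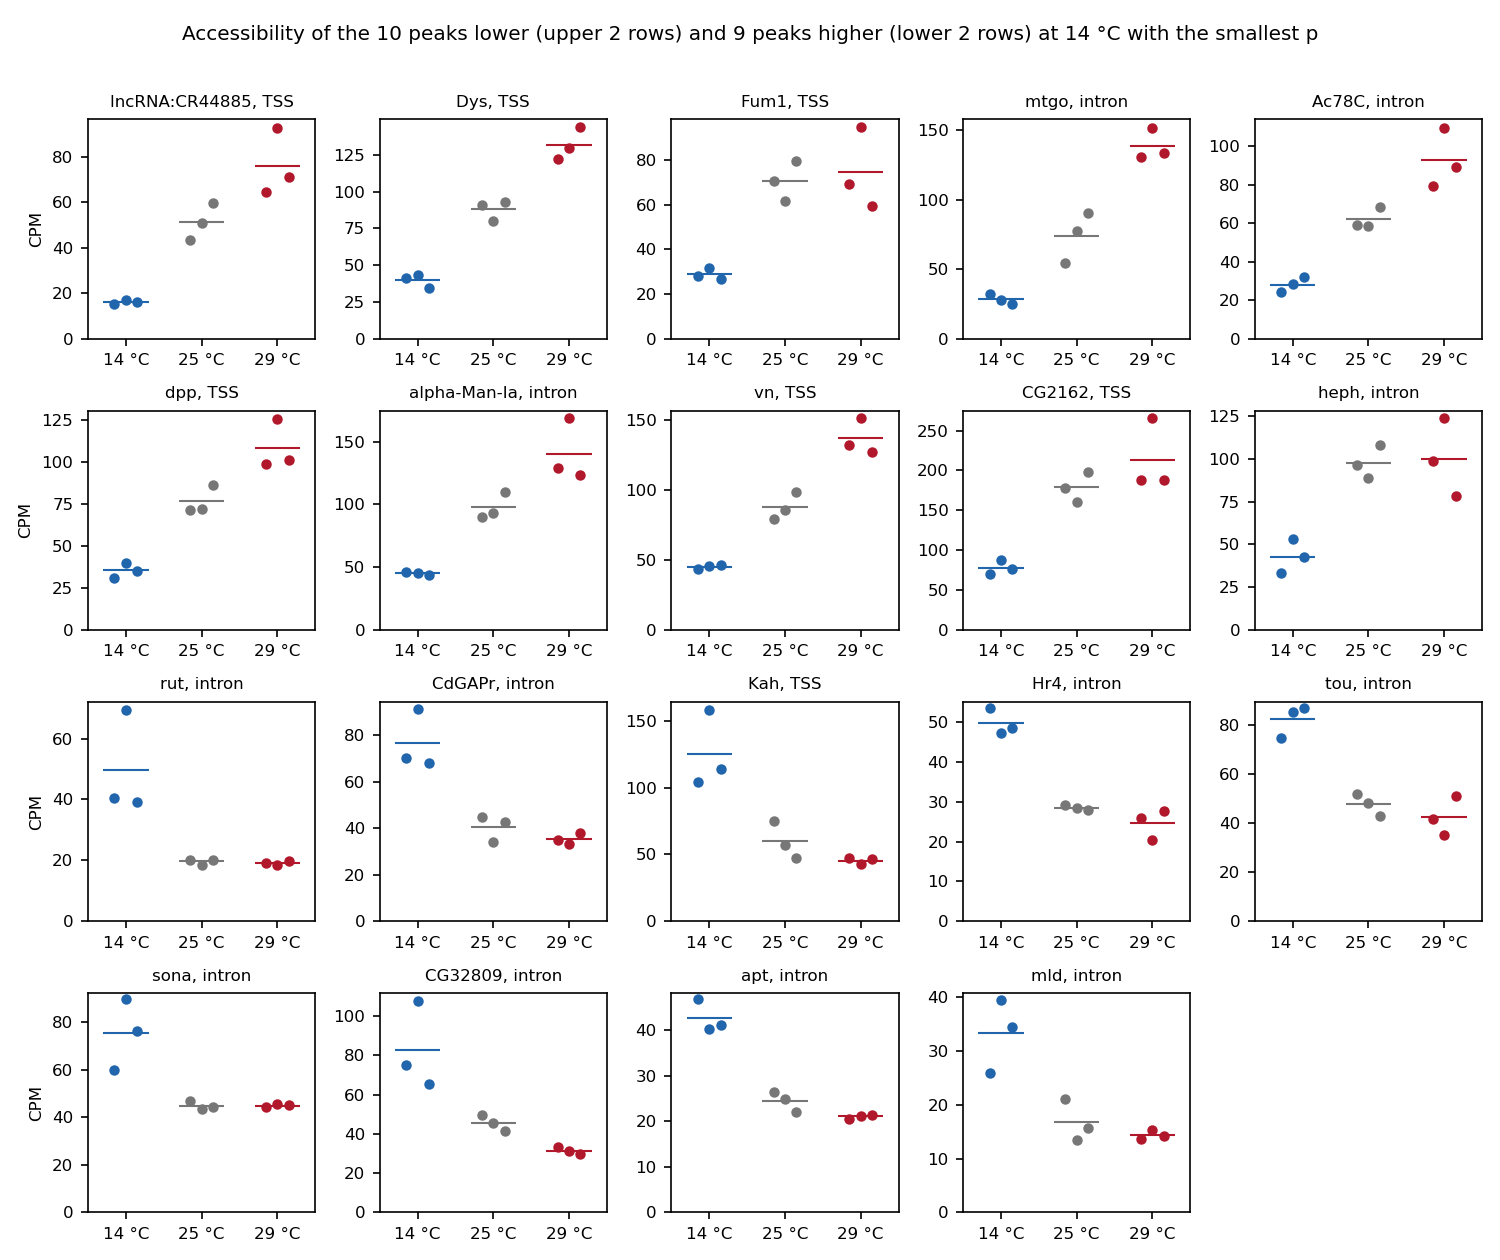
Accessibility in CPM (y axes, from 0, a separate scale for each peak) of 10 lower and 9 higher peaks among those with the smallest p in the comparison of 14 with 25 °C, with 1 point per library, a bar for the mean of 3, and 29 °C shown beside them. The 14 °C points lie under all 25 °C points in the upper 2 rows, as at lncRNA:CR44885 with at most 17.2 CPM against at least 43.4 CPM, and above them in the lower 2 rows, since non-overlap was part of how these peaks were chosen.

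Of the 10 more accessible peaks with the smallest p, again chosen among those without overlap of libraries, 9 are described. They were placed differently, 8 in introns and 1 at a TSS. None of the 9 passed the edgeR threshold, with adjusted p-values from 0.367 to 0.534, while DESeq2 called all 9 and the fit with height offsets called 3. The strongest lay in an intron of rut (chrX:14811186-14811686), 7353 bp inside the gene. The gene rut encodes rutabaga, the calcium and calmodulin-responsive adenylyl cyclase known from fly learning. Its peak had 40.6, 69.5 and 39.3 CPM at 14 °C, against 20.1, 18.6 and 20.1 CPM at 25 °C, with 19.0 ± 0.77 CPM at 29 °C (SD, n = 3). Replicate 2 was the highest of the cold libraries, and the other 2 were also above every 25 °C library. On the log2 scale the peak stood 1.35 ± 0.24 above 25 °C, with an adjusted p of 0.367, or 0.217 with height offsets.

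A peak of CdGAPr had the next smallest p. CdGAPr encodes a GTPase-activating protein, and its intronic peak (chr2L:19785813-19786313) had 70, 91.5 and 68.2 CPM at 14 °C, against 45.0, 33.9 and 42.5 CPM at 25 °C (log2 fold change 0.92 ± 0.17, edgeR adjusted p = 0.421, 0.037 with height offsets). Replicate 2 was again the highest of the cold libraries.

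Of the other higher peaks, 5 belonged to Kah, Hr4, tou, apt and mld. Kah, a zinc finger factor of the Snail family, had the only TSS peak (chr3L:588926-589426), with 104, 159 and 114 CPM at 14 °C, against 74.9, 57.2 and 47.3 CPM at 25 °C (log2 fold change 1.07 ± 0.22, edgeR adjusted p = 0.517, 0.0233 with height offsets). The intronic peak of Hr4, an ecdysone-responsive nuclear receptor, had 53.5, 47.4 and 48.5 CPM at 14 °C, against 29.2, 28.5 and 27.8 CPM at 25 °C (0.80 ± 0.17). The replicates of Hr4 were close at both temperatures. The peak in tou, for the chromatin protein toutatis, had 75, 85.5 and 87.0 CPM at 14 °C, against 52.0, 48.1 and 43.1 CPM at 25 °C (0.79 ± 0.17). That in apt, for the transcription factor apontic, had 46.8, 40.3 and 41.2 CPM at 14 °C, against 26.3, 25.0 and 22.1 CPM at 25 °C (0.80 ± 0.18). The zinc finger gene mld, which ecdysone synthesis needs, had the lowest of these peaks, with 26.0, 39.5 and 34.5 CPM at 14 °C, against 21.0, 13.5 and 15.7 CPM at 25 °C (1.00 ± 0.23). Hr4, tou, apt and mld shared an edgeR adjusted p of 0.534. The remaining 2 peaks lay in introns of sona, for a secreted metalloprotease, and of CG32809, with log2 fold changes of 0.75 ± 0.17 and 0.86 ± 0.19.

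Some genes held several peaks with an unadjusted p under 0.05 in 1 direction, counted over the gene and 2000 bp upstream, where 2.1% of all peaks were higher and 3.24% lower. The engulfment receptor gene drpr had 5 higher of 6 peaks, and the overlapping genes ITP, for ion transport peptide, and CG4622 had 4 higher of the same 9. On the lower side, osa, for a subunit of the Brahma chromatin remodelling complex, had 6 of 15, and dnc, for a cyclic AMP phosphodiesterase, had 5 of 24, although 15 of the 24 peaks of dnc had a fold change above 0. HmgZ (4 of 6), HmgD (4 of 9), SNF4Agamma (4 of 25) and tai (4 of 27) followed, and HmgZ and HmgD are neighbouring genes that share peaks. Of peaks in both directions, apt had 7 higher and 1 lower of 13, and Eip75B, an ecdysone-induced nuclear receptor gene, had 5 lower and 1 higher of 41. These last 2 genes were chosen after their values were seen. None of the peaks counted for these genes passed the adjusted threshold of the main fit.

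Of the 72 peaks called with height offsets, 68.1% lay away from start sites, against 53.9% of all peaks. They were tall peaks, with 64 of the 72 among the tallest 20% by mean count, and the smallest mean count among them was 324.7. Of the 31 higher peaks, 15 were intronic, 7 intergenic and 7 at TSSs. Of the 41 lower peaks, 19 were intronic, 5 intergenic and 16 at TSSs. Libraries did not overlap in 60 of the 72, and 56 had an unadjusted p under 0.05 without offsets. Of all peaks, 4.59% were higher and 5.08% lower without overlap, and 2.1% were higher and 3.24% lower at such a p. The 72 were called from the same libraries, so the counts of 60 and 56 follow in part from the selection and are not separate evidence. The peaks named from this group in the following paragraphs were chosen after their values were seen.

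Among the 41 lower peaks of this group, 4 are given by value. An intronic peak of Ser, a Notch ligand, had 71.5, 125 and 76.8 CPM at 14 °C, against 214, 206 and 285 CPM at 25 °C, or -1.37 ± 0.31 on the log2 scale (edgeR adjusted p = 0.0078 with height offsets). A peak upstream of spz, the Toll ligand spätzle, had 39.6, 68.6 and 48.9 CPM at 14 °C, against 99.5, 98.0 and 117 CPM at 25 °C (-0.99 ± 0.24). Intronic peaks of Stat92E, the fly STAT factor (70.8, 122 and 73.6 CPM at 14 °C, against 140, 145 and 182 CPM at 25 °C), and of Notum, a secreted Wnt inhibitor (57.9, 84.5 and 61.2 CPM at 14 °C, against 121, 126 and 156 CPM at 25 °C), were also below at 14 °C in every library. In each of these 4 peaks replicate 2 was the highest cold library and came nearest to the 25 °C libraries.

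The higher peaks included the X-chromosomal non-coding RNA roX1, part of the complex that doubles transcription of the male X. The roX1 peak, 745 bp past the TSS, had 190, 297 and 219 CPM at 14 °C, against 136, 123 and 104 CPM at 25 °C (log2 fold change 0.96 ± 0.24, edgeR adjusted p = 0.589). With height offsets roX1 stood at 1.26, with an edgeR adjusted p of 0.0147. The single peak of its partner lncRNA:roX2 had a log2 fold change of -0.51 and an unadjusted p above 0.05. The gene luna, for a Krüppel-like zinc finger factor, held 3 of the 31. Its tallest had 999, 1537 and 1163 CPM at 14 °C, against 895, 931 and 981 CPM at 25 °C, which is a log2 fold change of 0.40 ± 0.25 without offsets and 0.86 with them. The temperatures were close together here, the lowest cold library being just above the highest at 25 °C. Of all 45 peaks of luna, 9 were higher and none lower at an unadjusted p under 0.05 with offsets, where the background was 2.95% higher and 4.8% lower. Without offsets 2 were higher and 1 lower, against 2.1% and 3.24% of all peaks.

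The gene kay, for the Fos subunit of AP-1, held peaks of both directions. One intronic peak had 147, 301 and 179 CPM at 14 °C, against 368, 412 and 566 CPM at 25 °C (log2 fold change -1.10 ± 0.31, -0.67 with height offsets). A second intronic peak, nearest the gene fig, had 161, 280 and 186 CPM at 14 °C, against 152, 165 and 196 CPM at 25 °C (0.29 ± 0.28, 0.67 with offsets). The groups of the second peak overlapped, so that its call rests on the offsets.

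A run of higher peaks lay near the tip of arm 3L, where the first 1 Mb held 9 of the 31 higher and 0 of the 41 lower peaks called with height offsets, among 255 peaks. The region was singled out after the values were seen. At an unadjusted p under 0.05 with offsets it had 34 higher (13.3%) and 4 lower peaks (1.57%), against 2.95% and 4.8% of all peaks. Such shares were not particular to this tip. Among 233 windows of 500000 bp, the highest higher share was 15.4% at 0.5 to 1 Mb of 3L, followed by 14.6% at 29.5 to 30 Mb of 3R. A window at 8.5 to 9 Mb of 3L had 11.7%, while 0 to 0.5 Mb of 3L had 9.68%. The 3R window held 2 higher and 1 lower of the called peaks. Without offsets the first 1 Mb of 3L had 13 higher and 4 lower of its 255 peaks, against 2.1% and 3.24% of all peaks. Libraries did not overlap in 18 higher and 9 lower of the 255, against 4.59% and 5.08% of all peaks. The called peaks included the Kah TSS, the TSS of lncRNA:CR44537 with 148, 290 and 168 CPM at 14 °C against 105, 97.9 and 109 CPM at 25 °C, and a peak 978 bp past the TSS of CG13898 with 117, 171 and 108 CPM at 14 °C against 80.2, 67.9 and 71.5 CPM at 25 °C. In both peaks every cold library was above every library of 25 °C. The median of all 255 peaks, on a log2 scale relative to each library's median peak, was 0.64, 0.54 and 0.66 at 14 °C, against 0.61, 0.56 and 0.43 at 25 °C, so that the groups overlapped for the region as a whole.

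By position, peaks at protein-coding TSSs (within 500 bp) were slightly lower and peaks in coding exons and between genes higher at 14 °C, but the libraries of the 2 temperatures overlapped in each class. The 7323 peaks at protein-coding TSSs had a median log2 fold change of -0.10, and 36.5% of them were above 0, against 53.5% of all peaks. The 2005 of them at divergent promoters, which have TSSs on both strands, had a median of -0.14, and the 5318 others -0.08. The 1670 coding exon peaks had a median of 0.33, with 93.0% above 0, and the 2332 intergenic peaks 0.28, with 75.7% above 0. The 4721 intronic peaks (0.05), 596 TSS peaks of non-coding genes only (-0.03), 89 peaks in 5′ UTRs (0.00) and 360 in 3′ UTRs (0.13) were closer to the median of all peaks, 0.04.

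Few of these peaks differed singly. At an unadjusted p under 0.05, 18 coding exon peaks (1.08%) were higher and 7 (0.42%) lower, both under the share over all peaks. Among intronic peaks 154 (3.26%) were higher and 211 (4.47%) lower, both above it. Among protein-coding TSS peaks 72 (0.98%) were higher and 233 (3.18%) lower.

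**Figure D2:**
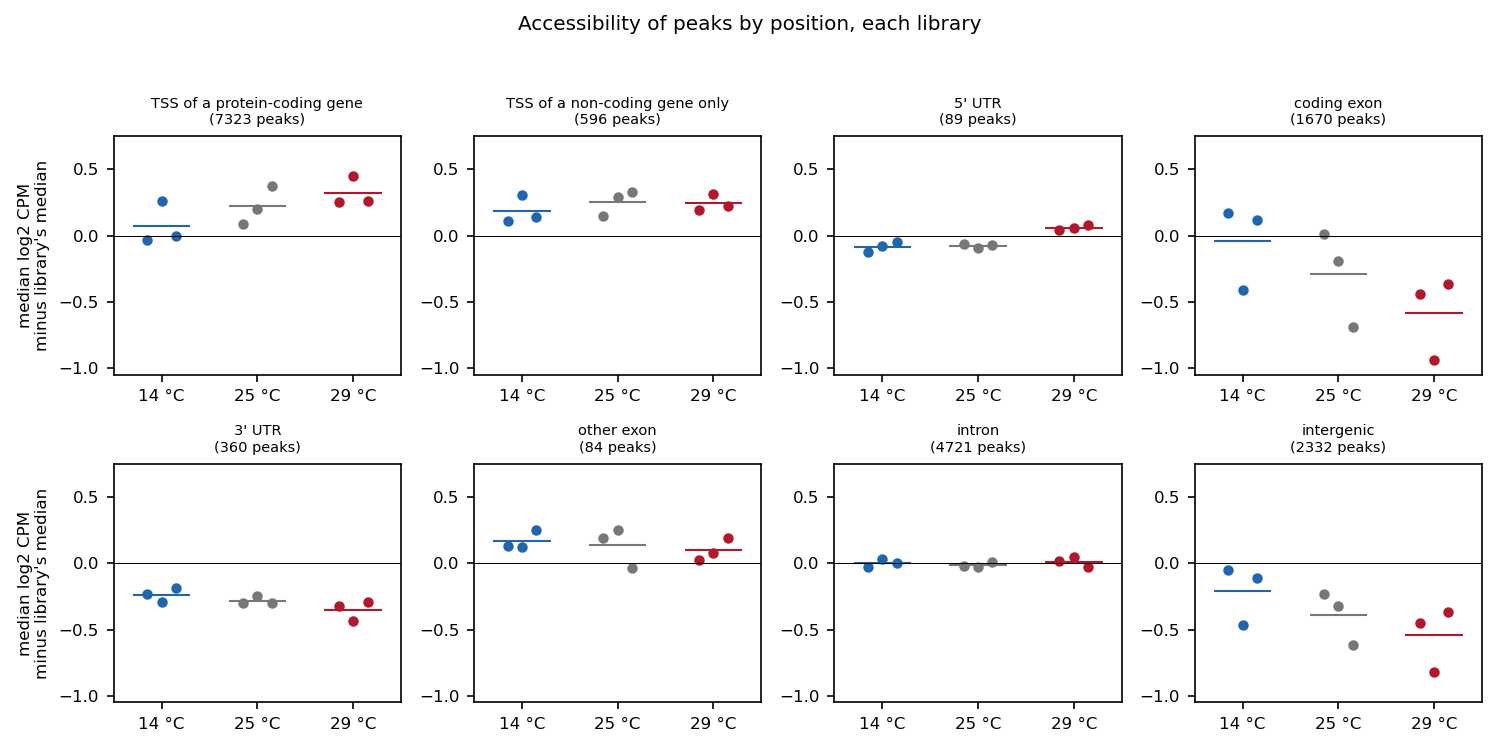
Median log2 CPM of the peaks of each position class minus the median of all peaks of the library (y axes), with 1 point per library, a bar for the mean of 3, and panels for the 8 classes. For coding exons the 14 °C points lie at 0.17, -0.41 and 0.12 and the 25 °C points at 0.02, -0.19 and -0.69, so these 2 groups overlap, as they do in every panel.

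The library values show how wide the overlap was. Relative to the library's median peak, coding exon peaks stood at 0.17, -0.41 and 0.12 at 14 °C (log2 scale), against 0.02, -0.19 and -0.69 at 25 °C (exact permutation test, 2-sided p = 0.50, adjusted p = 0.63 over 20 such values). Replicate 2 at 14 °C was lower than 2 of the 25 °C libraries. Protein-coding TSS peaks stood at -0.03, 0.26 and 0.00 at 14 °C, against 0.09, 0.20 and 0.38 at 25 °C (exact permutation test p = 0.30, adjusted p = 0.57). The coding exon median, set against that of all peaks, was 0.29, and it ran from 0.09 to 0.52 with single libraries left out, the highest without replicate 2 at 14 °C. These peaks are rich in GC, at a median of 53.7% against 43.7% for all peaks, and offsets against GC content brought their median log2 fold change to 0.13. Offsets against peak height brought it to 0.20.

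Fold changes also followed peak height. The median log2 fold change was 0.22 in the lowest 10% of the peaks by mean count and 0.28 in the next 10%, and lay above 0 up to the sixth such class and below 0 from the seventh on. In the tallest 10% it was -0.35, with 11.1% of the 1717 peaks above 0. The level of the tallest 10%, relative to the library's median peak, was 1.13, 2.17 and 1.35 at 14 °C, against 1.77, 1.97 and 2.29 at 25 °C (exact permutation test, 2-sided p = 0.30, adjusted p = 0.57). Replicates 1 and 3 at 14 °C were below all libraries of 25 °C, and replicate 2 was above 2 of them. With height offsets the 10 medians ran from -0.04 to 0.06. Introns show the same split, with a median of 0.24 in the lower 5 classes and -0.16 in the upper 5, while coding exons were above 0 in both (0.34 and 0.29).

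**Figure D3:**
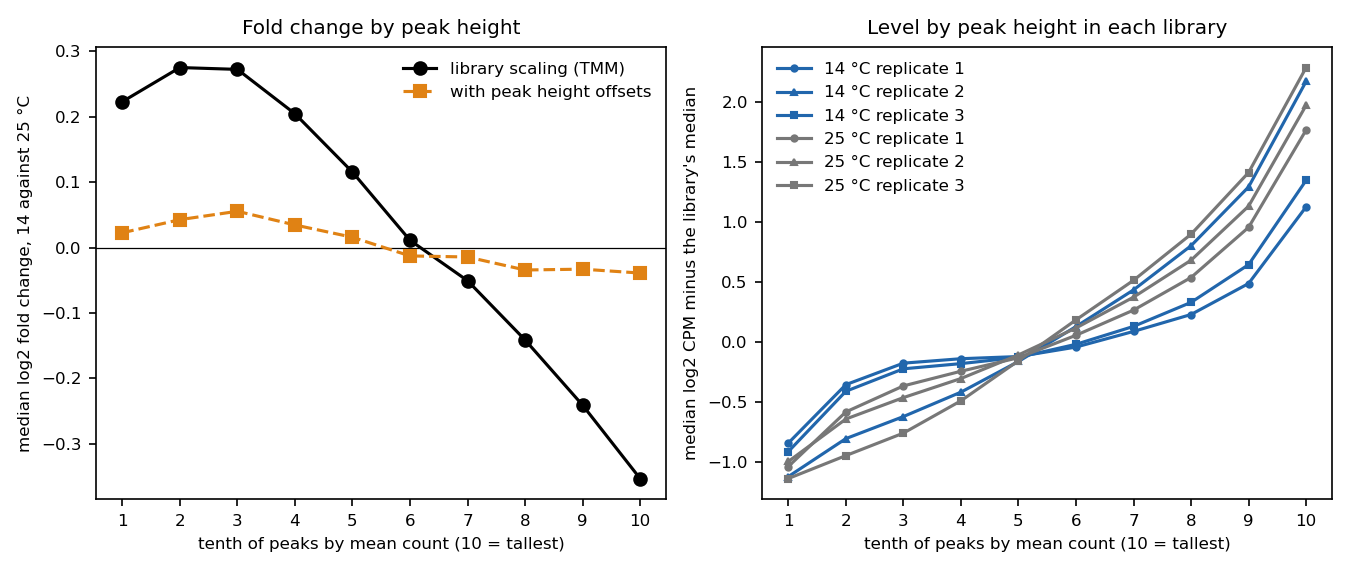
Left, median log2 fold change of 14 against 25 °C (y axis) in 10 equal classes of the peaks by mean count (x axis, tallest at the right), as scaled by TMM and with offsets against peak height. Right, median log2 CPM minus the library's median for the same classes in each library. The TMM curve goes from 0.22 in the lowest to -0.35 in the tallest class, and at the right edge replicate 2 of 14 °C (2.17) lies among the 25 °C libraries.

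Chromosome arms differed little, apart from Y with only 14 peaks. Those on Y had a median log2 fold change of 0.34, or 0.22 with height offsets, and their libraries overlapped between temperatures. The median log2 fold change was 0.11 for the 3864 peaks on 2R, 0.06 on 3L and 3R, 0.02 on 2L, -0.09 for the 2615 peaks on X and -0.15 for the 126 peaks on chromosome 4. On X, levels relative to the library's median peak were -0.34, 0.11 and -0.23 at 14 °C, against -0.15, -0.03 and 0.11 at 25 °C. The groups overlapped, and the X median, set against that of all peaks, ran from -0.27 without replicate 2 at 14 °C to -0.04 over the alternatives tried. Of unadjusted p-values under 0.05, X had 56 higher (2.14%) and 93 lower peaks (3.56%), near the shares of all peaks.

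Promoter peaks of 27 gene lists were then compared, 778 peaks in all. None passed the adjusted edgeR threshold of the main fit, and 8 (1.03%) were higher and 35 (4.50%) lower at an unadjusted p under 0.05, against 0.98% and 3.18% of all protein-coding TSS peaks. In the 24 lists with at least 10 peaks the median log2 fold change lay between -0.27 and -0.03, where all protein-coding TSS peaks had -0.10. With height offsets the range was -0.17 to -0.01, where all protein-coding TSS peaks had -0.08.

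Metabolic and growth lists stayed near the median of all promoters. Promoters of glycolysis genes (26 peaks) had a median of -0.17, those of the tricarboxylic acid cycle (29) -0.16, of oxidative phosphorylation (70) -0.14, of mitochondrial ribosomal proteins (63) -0.03, of cytoplasmic ribosomal proteins (92) -0.07 and of the proteasome (39) -0.11. In these 6 lists the peaks with an unadjusted p under 0.05 numbered 0 higher, and 0, 1, 2, 0, 2 and 1 lower. The lower share was at most 3.45% in a list, where all protein-coding TSS peaks had 3.18% lower and 0.98% higher. The shared promoter of Fum1 and ND-ASHI was the strongest of both mitochondrial enzyme lists. The proteasome's strongest was Rpn8, a lid subunit, with 54.0, 93.5 and 53.8 CPM at 14 °C, against 139, 122 and 155 CPM at 25 °C (log2 fold change -1.04 ± 0.27, edgeR adjusted p = 0.617, 0.0174 with height offsets). The Rpn8 libraries did not overlap. For ribosomal proteins the strongest was RpLP2, at -0.40 ± 0.16, and for the mitochondrial ribosome mRpL39, at -0.31 ± 0.17, which overlapped.

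Cell cycle lists held 4 lower and 1 higher of 32 S phase peaks and 2 lower of 32 M phase peaks at this unadjusted threshold (12.5% and 6.25% lower, against 3.18% of all protein-coding TSS peaks), with medians of -0.12 and -0.08. The promoter of stg, the Cdc25 phosphatase that starts mitosis, had 84.2, 110 and 86.2 CPM at 14 °C, against 133, 154 and 175 CPM at 25 °C (-0.72 ± 0.24, edgeR adjusted p = 0.654). Every cold library was below every 25 °C library. The strongest S phase peak, shared by mute and Ufm1, had a log2 fold change of -0.41 ± 0.17.

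With TMM scaling, lists of the cell surface, tubulins and lipid synthesis were lower than the median of all protein-coding TSS peaks, -0.10. Extracellular matrix and adhesion (45 peaks) had a median of -0.27, tubulins (11) -0.22 and fatty acid synthesis and desaturation (31) -0.23. With height offsets the 3 medians were -0.07, -0.12 and -0.06, against -0.08 for all protein-coding TSS peaks, so that only the tubulins were then lower. The promoters of these lists were taller, with median mean counts of 408, 413 and 440, against 307 for all protein-coding TSS peaks. They were not matched to other promoters in height. The adhesion list had 5 lower and 2 higher peaks at an unadjusted p under 0.05, the lipid list 3 and 1, and the tubulins none. The lower shares of the adhesion and lipid lists were 11.1% and 9.68% and the higher shares 4.44% and 3.23%, against 3.18% and 0.98% of all protein-coding TSS peaks. LanB1, a laminin chain, had 20.3, 25.3 and 16.5 CPM at 14 °C, against 32.3, 34.3 and 50.3 CPM at 25 °C (-0.91 ± 0.28). The TSS peak of mino, a glycerol-3-phosphate acyltransferase of lipid synthesis, had 51.7, 89.9 and 59.4 CPM at 14 °C, against 136, 126 and 173 CPM at 25 °C (-1.11 ± 0.28, edgeR adjusted p = 0.617, 0.0188 with height offsets).

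**Figure D4:**
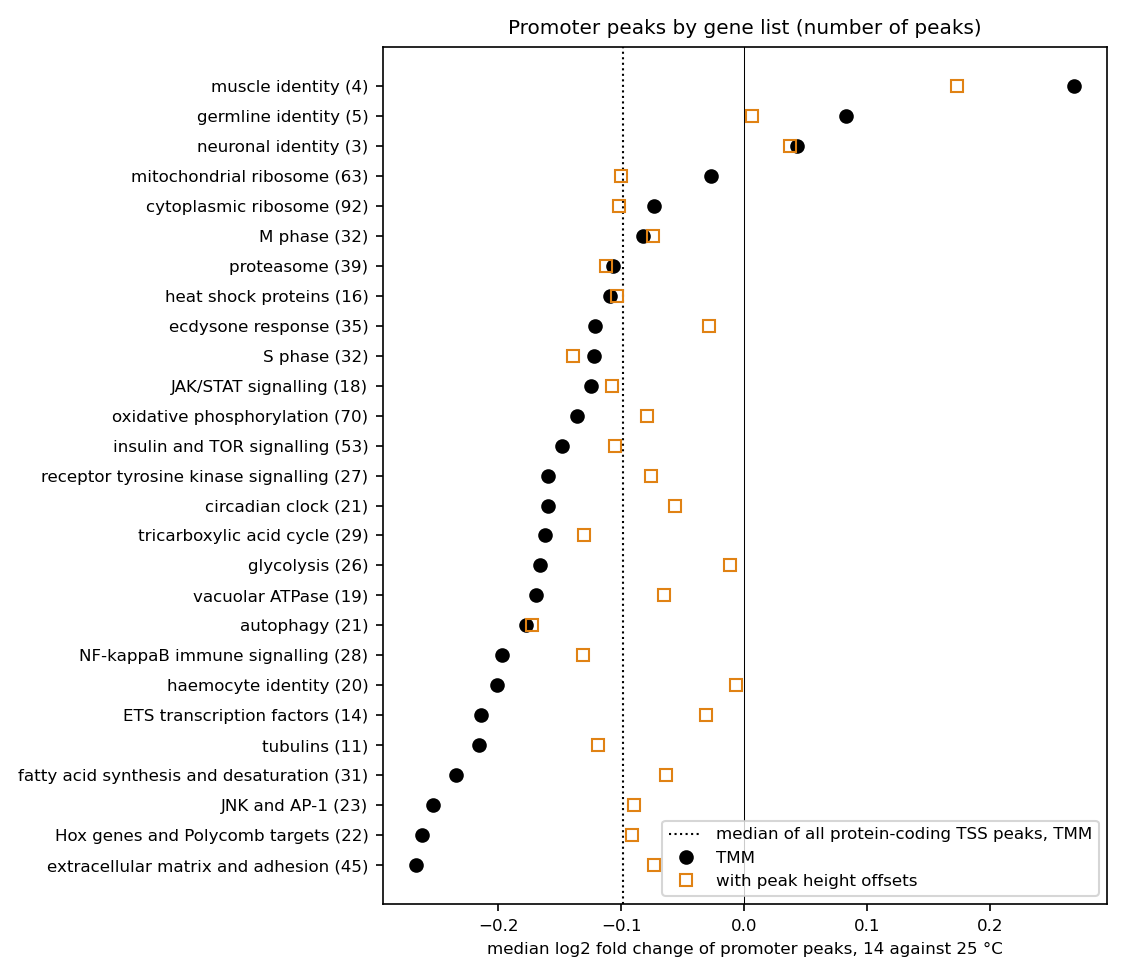
Median log2 fold change of the promoter peaks of each gene list (x axis, 14 against 25 °C), with filled circles for TMM scaling, open squares for offsets against peak height, the number of peaks in brackets and a dotted line at the median of all protein-coding TSS peaks (-0.10). Lists of at least 10 peaks lie between -0.27 and -0.03 with TMM and between -0.17 and -0.01 with offsets. The dotted line is for TMM, and with offsets the median of all protein-coding TSS peaks was -0.08.

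Signalling and transcription factor lists held between 0 and 4 such lower peaks each, against a share of 3.18% lower and 0.98% higher over all protein-coding TSS peaks. Receptor tyrosine kinase signalling (27 peaks, median -0.16) had 2 lower (7.41%), one of them vn. Ecdysone response (35, -0.12) had 3 lower (8.57%), the strongest at br, the broad zinc finger gene, with 15.8, 12.6 and 16.1 CPM at 14 °C against 23.8, 32.1 and 23.6 CPM at 25 °C (log2 fold change -0.84 ± 0.22, edgeR adjusted p = 0.617). NF-kappaB immune signalling (28, -0.20) had 3 lower (10.7%) and 1 higher (3.57%), and its strongest was the antimicrobial peptide gene CecA1 with 24.5, 19.2 and 22.4 CPM at 14 °C, against 15.1, 14.5 and 15.0 CPM at 25 °C (0.56 ± 0.19). The br and CecA1 libraries did not overlap between temperatures. ETS transcription factors (14, -0.21) had 2 lower (14.3%), with aop, the ETS repressor yan, at -0.76 ± 0.28. JNK and AP-1 (23, -0.25) had 0, and its strongest was Atf3 at -0.70 ± 0.35. JAK/STAT signalling (18, -0.12) had 1 in each direction (5.56%), with the apt promoter at 0.48 ± 0.18. Hox genes and Polycomb targets (22, -0.26) had 4 lower (18.2%), with Scr at -0.64 ± 0.22. The level of this list relative to the library's median peak was 0.41, 0.70 and 0.47 at 14 °C, against 0.95, 0.80 and 0.92 at 25 °C, without overlap. Such non-overlap has an exact permutation p of 0.10 at best. Insulin and TOR signalling (53, -0.15) had 1 higher, the kinase gene Pdk1, at 0.55 ± 0.23, and vacuolar ATPase subunits (19, -0.17) had 1 lower, at a promoter shared by Vha100-2 and Vti1b (-0.60 ± 0.25). Autophagy (21, -0.18), the circadian clock (21, -0.16) and heat shock proteins (16, -0.11) had none, and their strongest were the shared promoter of Atg18b and CG8677 at -0.41 ± 0.21, sgg at -0.33 ± 0.21 and Hsc70-5 at -0.46 ± 0.27. With height offsets all protein-coding TSS peaks had a median of -0.08. Receptor tyrosine kinase, ecdysone, NF-kappaB and ETS lists then had -0.08, -0.03, -0.13 and -0.03. JNK and AP-1, JAK/STAT, and Hox and Polycomb lists had -0.09, -0.11 and -0.09. Insulin and TOR, vacuolar ATPase, autophagy, clock and heat shock lists had -0.11, -0.06, -0.17, -0.06 and -0.10. In glycolysis Pdp stood at -0.43 ± 0.21.

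Loci that the study followed for their response to cold were read at the peak with the smallest p in the gene or 2000 bp upstream. The study chose several of these with these or related samples, so they are not independent evidence of a direction. At pst, pastrel, the peak over a TSS shared with Sec63 had 63.4, 104 and 63.7 CPM at 14 °C, against 49.4, 51.1 and 52.7 CPM at 25 °C (log2 fold change 0.60 ± 0.21, unadjusted p = 0.016, edgeR adjusted p = 0.654). RNaseX25, a secreted ribonuclease gene, had 40.3, 71.4 and 40.4 CPM at 14 °C, against 30.6, 25.0 and 35 CPM at 25 °C (0.75 ± 0.26, unadjusted p = 0.014). In both, all cold libraries were above all 25 °C libraries and replicate 2 was the farthest.

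At Socs36E, a JAK/STAT inhibitor gene, a peak near the TSS of lncRNA:CR44478 had 41.1, 74.2 and 51.0 CPM at 14 °C, against 27.4, 33.6 and 35.8 CPM at 25 °C (log2 fold change 0.79 ± 0.23, unadjusted p = 0.005). A second of its 6 peaks was lower at an unadjusted p under 0.05. With height offsets 4 of the 6 were higher and 0 lower at such a p, against 2.95% and 4.8% of all peaks. Near betaTub97EF, a beta tubulin gene, the peak had 49.0, 44.0 and 42.1 CPM at 14 °C, against 27.5, 36.4 and 38.4 CPM at 25 °C (0.40 ± 0.18), and the promoter peak of the gene itself stood at 0.36 ± 0.21 with overlapping libraries. A Pvf3 intronic peak, in the gene of a PDGF and VEGF-related ligand, had a log2 fold change of 0.34 ± 0.18, and an intronic peak of the cytokine gene upd3 -0.39 ± 0.27 with overlapping libraries. The single peak assigned to Hsp23, a small heat shock gene, lies over the start sites of Hsp67Ba and asRNA:CR43481 and had 28.5, 33.8 and 25.8 CPM at 14 °C, against 28.7, 27.9 and 29.3 CPM at 25 °C (0.04 ± 0.18). For this peak the 14 °C libraries lay on both sides of the 25 °C libraries, and 0.04 changed sign under several alternatives.

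Markers of cell types were read as promoter peaks. Of 22 haemocyte genes 15 had a promoter peak, while Hml, He and NimC1 had none. Of 10 muscle genes 3 had one, of 10 neuronal genes 4, of 9 germline genes matched 4 and of 8 fat body genes 0. The 20 haemocyte peaks had a median log2 fold change of -0.20, and -0.01 with height offsets. Their level relative to the library's median peak was 0.50, 0.63 and 0.59 at 14 °C, against 0.72, 0.76 and 0.71 at 25 °C, without overlap. This also held for Hox genes and Polycomb targets, but for no other of the 27 lists. Non-overlap of 3 libraries with 3 has an exact permutation p of 0.10 at best. Its presence in so few of 27 lists therefore does not set them apart. Of the 20, 2 were lower (10%) and 1 higher (5%) at an unadjusted p under 0.05, against 3.18% and 0.98% of all protein-coding TSS peaks. The higher one belonged to gcm2, a glial cells missing factor of haemocyte development, with 31.7, 39.0 and 33.7 CPM at 14 °C, against 21.0, 24.8 and 20.4 CPM at 25 °C (0.66 ± 0.19, edgeR adjusted p = 0.654). The 4 muscle, 3 neuronal and 5 germline peaks had medians of 0.27, 0.04 and 0.08, and none had an unadjusted p under 0.05. Their strongest were Act57B at 0.49 ± 0.29, the promoter of ChAT and VAChT at 0.54 ± 0.31, and tej at 0.21 ± 0.15.

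Sequence motifs were searched on both strands of each peak. AP-1 was spelled TGANTCA and GAGA factor GAGAG. The STAT motif was TTCNNNGAA, and for ETS factors it was CCGGAA. For GATA factors AGATAA was used, for the DNA replication element (DRE) TATCGATA, and for the heat shock element GAANNTTC. The E-box was CACGTG, FTZ-F1 was given CAAGGT, and the TATA box was TATAAAA. AP-1 joins Fos and Jun proteins, and GAGA factor keeps fly promoters open. A match is a description of letters and not a bound site. The AP-1 letters were in 28.6% of the 360 higher peaks, in 17.1% of the 556 lower peaks and in 15.6% of all peaks. Away from TSSs and with height offsets, 27.2% of 364 higher and 18.0% of 439 lower peaks held them, against 17.1% of all such peaks. All peaks with an AP-1 match had a median log2 fold change of 0.02, against 0.04 for those without, so that the match did not mark a shift of the whole class.

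The GAGA factor letters had the other order, in 47.5% of higher and 65.1% of lower peaks, against 54.9% of all peaks. With height offsets they were in 55.9% of higher and 62.5% of lower peaks, so that the higher peaks were then near the share of all peaks. ETS matches were in 10.3% and 9.71% of higher and lower peaks, against 14.5% of all, and DRE matches in 1.11% and 1.62%, against 5.02%. With height offsets ETS matches were in 13.6% of higher and 9.58% of lower peaks, so that the higher peaks were then near the share of all peaks. Without offsets, STAT matches (13.1% in each direction) and GATA matches (29.7% and 30.8%) were near the shares in all peaks, 13.4% and 27%. Away from TSSs and with height offsets, GATA matches were in 28.3% of higher and 34.9% of lower peaks, against 27.2% of all such peaks. The heat shock element was in 12.8% of higher and 9.71% of lower peaks, against 12.3% of all peaks. DRE matches lay mostly at TSSs, with 0.94% of the peaks away from TSSs holding one, and the sets were not matched for position, length or GC content.

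**Figure D5:**
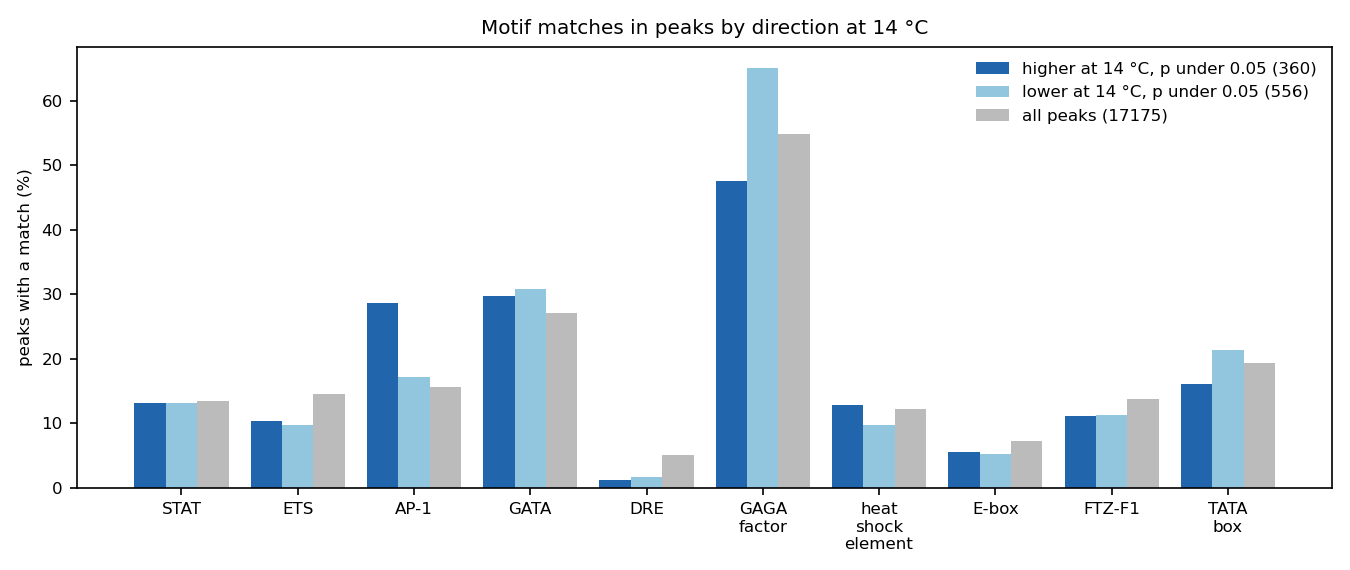
Share of peaks (y axis, percent, from 0) with at least 1 match to each motif among the 360 higher and the 556 lower peaks with an unadjusted p under 0.05 at 14 °C, and among all 17175 peaks. AP-1 stands at 28.6% of the higher and 17.1% of the lower peaks, and GAGA factor at 47.5% and 65.1%.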

How the data were processed

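Accessibility was measured by ATAC-Seq in 9 libraries, 3 each at 14, 25 and 29 °C, and 6 were compared. The authors trimmed reads with Trimmomatic 0.38, mapped them to dm6 with Bowtie2, filtered them with SAMtools and Picard, called peaks with MACS2 and counted reads in consensus peaks with DiffBind. The deposited raw table holds whole-number counts per peak and library. The authors' second table holds normalized values, a signal from which only size factors were recovered (99.99% of values matched within 0.5 counts). Tn5 insertion preferences, duplicate removal and the choice of consensus peaks act on these counts before any test.

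The test was edgeR 4.0.16 under R 4.3.3 (TMM, robust quasi-likelihood fit of all 9 libraries, temperature as factor, 6 residual degrees of freedom, no filter, Benjamini-Hochberg over 17175 peaks, threshold 0.05). The SE is the log2 fold change divided by the root of F. CPM are TMM-scaled, with a prior count of 2 on log2 scales. Peaks were annotated with Ensembl release 115 gene models, a TSS peak lying within 500 bp of a start, and sequences were read from RefSeq Release 6, which is dm6, for the 3 peaks of smallest p in each direction outside arm 2R. Matched list genes numbered 686 of 699. Of the 28 lists 10 follow sets the study curated. Counts simulated with 200 peaks changed by 1.5 (log2) gave 175 calls of these (87.5%) in the same test of 14 against 25 °C, and 6 false calls. Few observed peaks changed by that much, and the simulated libraries did not differ in how counts followed peak height. The share called therefore does not hold for smaller changes.

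Named peaks were, in each direction, the 10 with the smallest p among those without overlap of libraries, the smallest p at 7 loci of the study and in each list's promoters, and the genes with most peaks in 1 direction. Of these, 1 peak and 1 list are not reported here. The members and lists were chosen with earlier results of these data known. Replicate numbers did not pair the samples (r = 0.67, -0.45 and -0.74 between 14 and 25 °C). Deviations of 14 °C replicate 2 correlated at 0.82 with those of 25 °C replicate 3, and at -0.75 and -0.45 with replicates 1 and 2; the labels name no batch. The study calls its replicates biological, and the labels do not name separate cultures. No 2 replicates differed by so little as to be a single library. Alternatives were RLE, total-count and the authors' scaling, offsets from loess curves (span 0.3) against peak height or GC content, a replicate block, DESeq2 1.42.0, the 6 libraries alone, a filter at a mean count of 182, a threshold of 0.1 and each library left out.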

Additional observations from a re-analysis of the deposited data

How the results depend on the processing

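The count of 1 peak past the edgeR adjusted threshold stayed 1 with scaling by total counts, the authors' size factors, GC offsets, the filter on mean count, a threshold of 0.1, and without replicate 2 at 29 °C. It was 0 with RLE scaling (unadjusted p under 0.05 for 389 higher and 475 lower peaks), with edgeR on the 6 libraries (274 and 472), without replicate 1 or 3 at 29 °C, an alternative added after seeing the data, and with each of the 6 compared libraries left out (range 0 to 0). It was 72 with height offsets, 73 with DESeq2 and 64 with DESeq2 on the 6 libraries. With height offsets and without replicate 2 at 14 °C, added after seeing the data, it was 202. The cause of these differences was not tested. Without that library 2079 peaks had an adjusted p under 0.1 and 0 under 0.05. The replicate block gave 1 call in 9 libraries (423 higher and 998 lower at an unadjusted p under 0.05), 0 on the 6 libraries (170 and 415) and 78 with the replicate block and height offsets. The numbers share no known pairing, so no call is read from the block.

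Over 50 named peaks and 22 alternatives, 992 of 1092 values kept their direction and side of the threshold, 83 passed it in addition, 11 no longer passed it and 6 reversed. All 6 belong to the Hsp23 locus peak over asRNA:CR43481, at -0.0279 with the authors' size factors, -0.0644 with height offsets, -0.0359 with GC offsets, -0.0968 with the replicate block and height offsets, -0.0791 to 0.125 with single libraries of the comparison left out, and -0.297 with height offsets and without replicate 2 at 14 °C. At the median peak the counting error was below the spread of replicates, and whether depth limited the calls was not tested.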
